A study of Mus musculus with 12 samples.

Results

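Narrow sites open in every DNase-seq library of 2 mouse erythroid lines were described by summit position, width, strength and spacing. The peaks of 12 replicate lists on the 19 autosomes were merged where they shared at least 1 bp, which gave 263720 regions. Of these, 3874 were under 2000 bp wide and held a peak of all 12 lists, and they are called narrow sites here. They made up 1.47% of all merged regions, 1.73% of the 224010 merged regions under 2000 bp and 24.0% of the 16145 regions found in all 12 lists. The other 12271 of those shared regions, called wide regions, spanned 2000 bp or more. The sites were chosen by the measured peak positions, through presence in all lists and the width limit, so neither is a result.

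The libraries fell into 4 groups of 3. Mitotic G1E-ER4 cells had 100 nM estradiol for 22 h and nocodazole at 200 ng/ml for 7 h. Asynchronous G1E-ER4 cells had the same estradiol and no nocodazole. Mitotic G1E cells had nocodazole at 200 ng/ml for 7 h, and asynchronous G1E cells are labelled with no treatment. G1E is a line without GATA1, made by gene targeting in embryonic stem cells of strain 129, and G1E-ER4 is its subline in which GATA-1 can be induced. Both lines thus lack the endogenous factor, and estradiol is on the labels of all G1E-ER4 libraries and of no G1E library, so GATA1, estradiol and line cannot be told apart. Cells were lightly fixed with formaldehyde, the mitotic ones were sorted for phosphorylated histone H3, and 3 concentrations of DNase I were chosen per condition. Sorting, nocodazole and mitosis likewise cannot be told apart. Nothing in the labels ties replicates to separate cultures, so p-values measure only the spread between these libraries, which may be technical.

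DNase I cuts DNA where nucleosomes are displaced or loosely held, and such hypersensitive sites mark promoters, enhancers, insulators and other elements bound by transcription factors. The summit of a peak is the position of densest cutting and lies near the bound factors. In mitosis chromosomes condense and many factors leave the chromatin, while part of the open sites stays accessible, which has been studied as a form of memory that lets genes resume their activity after division. GATA1 is the factor that drives erythroid maturation.

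Each list held 100000 peaks on build mm9 in descending order of signal. The rank of a peak within its list, with 1 for the strongest, served as the measure of strength, and a larger rank number means a weaker site. The signal at rank 10000 was 1.86 to 2.67 times that of the last peak in mitotic lists and 3.19 to 6.30 times in asynchronous lists, so mitotic lists had flatter curves in every case. The median width of all peaks of a list ranged from 471 to 942 bp in mitotic and from 356 to 1192 bp in asynchronous lists. Read depth is unknown from these files. No annotation or genome of mm9 was used here, so no gene, cell type marker or sequence could be checked at these sites.

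The summits of the narrow sites lay close together. The 12 summits of a site spanned a median of 65 bp, with quartiles of 41 and 198 bp, inside merged regions with a median width of 1449 bp. All 12 lay within 20 bp at 203 sites (5.24%), within 50 bp at 1412 (36.4%), within 100 bp at 2522 (65.1%) and within 500 bp at 3453 (89.1%). The widest span was 1551 bp and the smallest 2 bp. Wide regions had a median span of 685 bp, and 12.9% of them had all summits within 50 bp. A narrow region cannot hold summits far apart, so this contrast is given without a test.

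**Figure D1:**
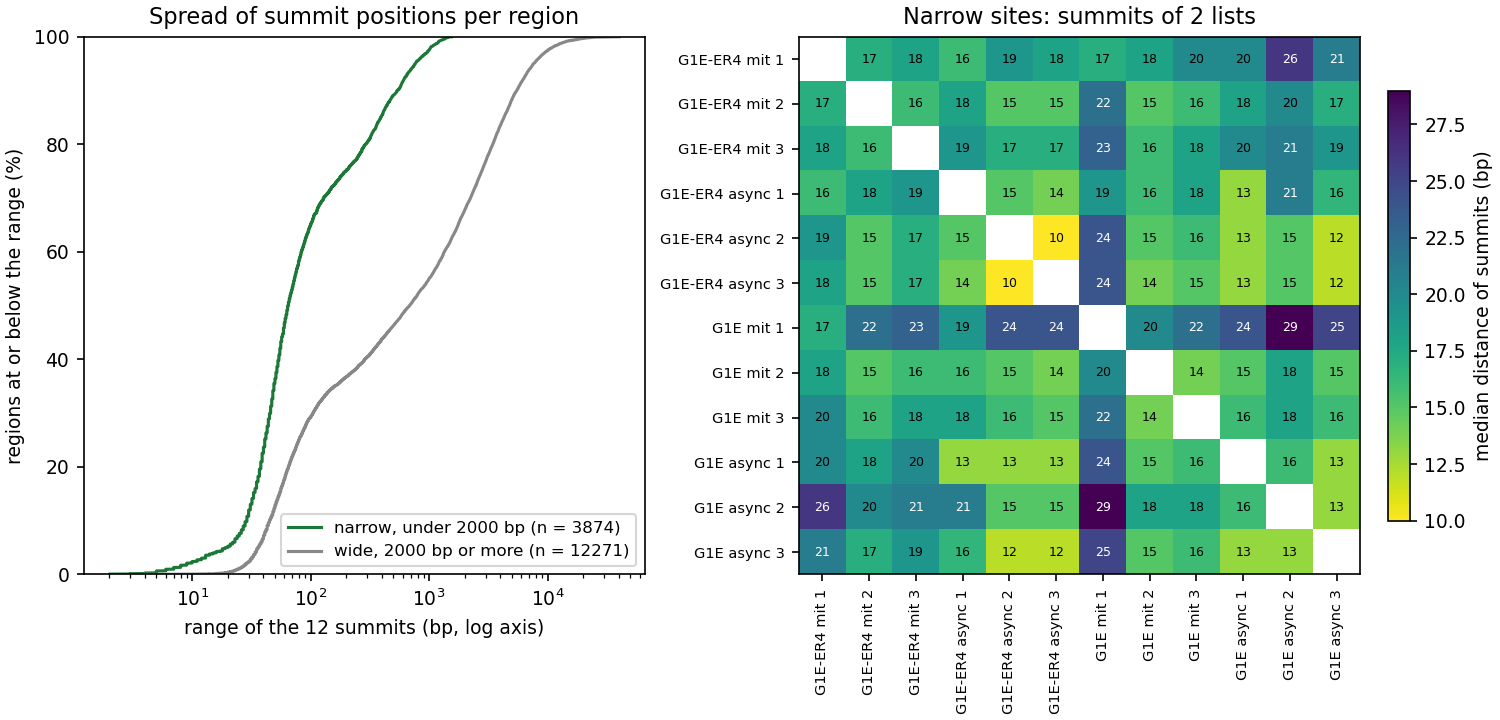
Left, share of regions (%) whose 12 summits span at most the distance on the x axis (bp, log axis), for 3874 narrow sites and 12271 wide regions; the narrow curve passes 65.1% at 100 bp and the wide one 29.3%. Right, median distance (bp) between the summits of 2 lists over the narrow sites for every pair of the 12 libraries (mit, mitotic; async, asynchronous), which ran from 10 to 29 bp.

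The edges moved more than the summits. Over the 12 lists the summit of a narrow site had a median SD of 19.0 bp, against 123 bp for the left and 128 bp for the right edge. The summit SD was below both edge SDs at 3185 sites (82.2%). A core covered by the best-ranked peak of every list was present at all but 227 sites (5.86% lacked it), with a median length of 408 bp. All 12 summits lay in this common core at 3275 sites (84.5%). Each list had exactly 1 peak at 2618 sites (67.6%), and several peaks in 1 region were most frequent in G1E asynchronous 2, at 14.7% of sites, the list with the narrowest peaks over the whole list.

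Taken pair by pair, the median distance between the summits of 2 lists averaged 17.5 ± 3.67 bp (SD over 66 pairs). Pairs of the same group were 17.0 ± 1.00 bp apart in mitotic G1E-ER4, 13.0 ± 2.65 bp in asynchronous G1E-ER4, 18.7 ± 4.16 bp in mitotic G1E and 14 ± 1.73 bp in asynchronous G1E (SD, n = 3 pairs each). G1E mitotic 1 stood farthest from the others, at a mean of 22.6 bp, and its list had the flattest signal curve. The part of that curve in the distance was not tested.

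Within a line, pairs from different stages were 18.3 ± 3.88 bp apart (SD over 18 pairs) and pairs from the same stage 15.7 ± 3.28 bp (SD over 12 pairs). Over both lines the excess was 2.67 bp (two-sided exact permutation p = 0.01, the lowest possible with 400 arrangements). Adjusted over 8 tests this was 0.08, and since the next lowest of the 8 exact p-values was 0.125, the adjusted value could not have passed 0.05. It was 2.11 bp in G1E-ER4 and 3.22 bp in G1E, with an exact permutation p = 0.1 in each line, the smallest possible there. Without G1E asynchronous 2 the excess was 1.68 bp (exact permutation p = 0.14). By line, within a stage, the excess was 0.75 bp (exact permutation p = 0.41, adjusted 0.656).

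Site by site, the mitotic and the asynchronous summits did not overlap at 99 of the 3874 narrow sites (2.56%), close to the 2.85% of all 16145 regions of the 12 lists. The stage medians at these 99 sites were a median of 36.5 bp apart, with a range of 4.5 to 853 bp, and 19 exceeded 100 bp. Between the lines summits did not overlap at 33 sites (0.852%), against 1.38% of all regions of the 12 lists. Among all narrow sites the stage medians were more than 100 bp apart at 273 (7.05%) and the line medians at 236 (6.09%), beside 34.2% and 31.9% of wide regions. At 265 sites (6.84%) the summits fell at a pair of positions over 150 bp apart with at least 3 lists at each, at a median distance of 330 bp. The lists divided exactly by stage at 6 of these and by line at 0. An exact division needs all 6 lists of a stage or line at 1 position, which few arrangements of 12 lists allow. Low counts thus follow from the rule and are not read further.

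The 3 sites with the tightest summits were short. At chr10:10890333-10890928, 596 bp wide, all summits lay within 2 bp, from 10890648 to 10890650, although its rank ranged from 148 to 4306. The summits at chr5:60306745-60307178 spanned 2 bp and those at chr17:94073030-94073520 spanned 3 bp. At the other end, chr11:119897133-119899043 had summits up to 1551 bp apart and no common core, with ranks from 17931 to 93736. The summits of chr12:112121772-112123759 spanned 1482 bp. At chr4:147543486-147545464 they spanned 1434 bp, but here 11 of 12 summits lay between 147545083 and 147545116. The remaining one, of G1E-ER4 mitotic 3, was at 147543682, where that list ranked the site at 46971.5 with a peak of 299 bp.

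A difference in peak width by stage was not detectable at the narrow sites beyond the spread between libraries. Their median width was 847, 653 and 553 bp in the 3 mitotic G1E-ER4 lists and 1044, 848.5 and 842 bp in the asynchronous ones. In G1E it was 845, 866 and 757 bp in mitotic and 1200, 610 and 789.5 bp in asynchronous lists. The groups overlapped in both lines. The labels do not say that replicate numbers pair the stages. Within numbers 1, 2 and 3 the mitotic minus asynchronous difference was -197, -195.5 and -289 bp in G1E-ER4 and -355, 256 and -32.5 bp in G1E. In G1E-ER4 it thus had the same sign within all 3 numbers (exact permutation p = 0.25 within numbers, the smallest that 8 arrangements allow). Over both lines the mean was 754 ± 127 bp in mitotic and 889 ± 206 bp in asynchronous lists (SD, n = 6 each), a difference of -135.5 bp (exact permutation test, two-sided, p = 0.245, adjusted 0.653 over 8 tests). Within G1E-ER4 the difference was -227 bp (exact p = 0.2) and within G1E it was -43.8 bp (exact p = 0.9).

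**Figure D2:**
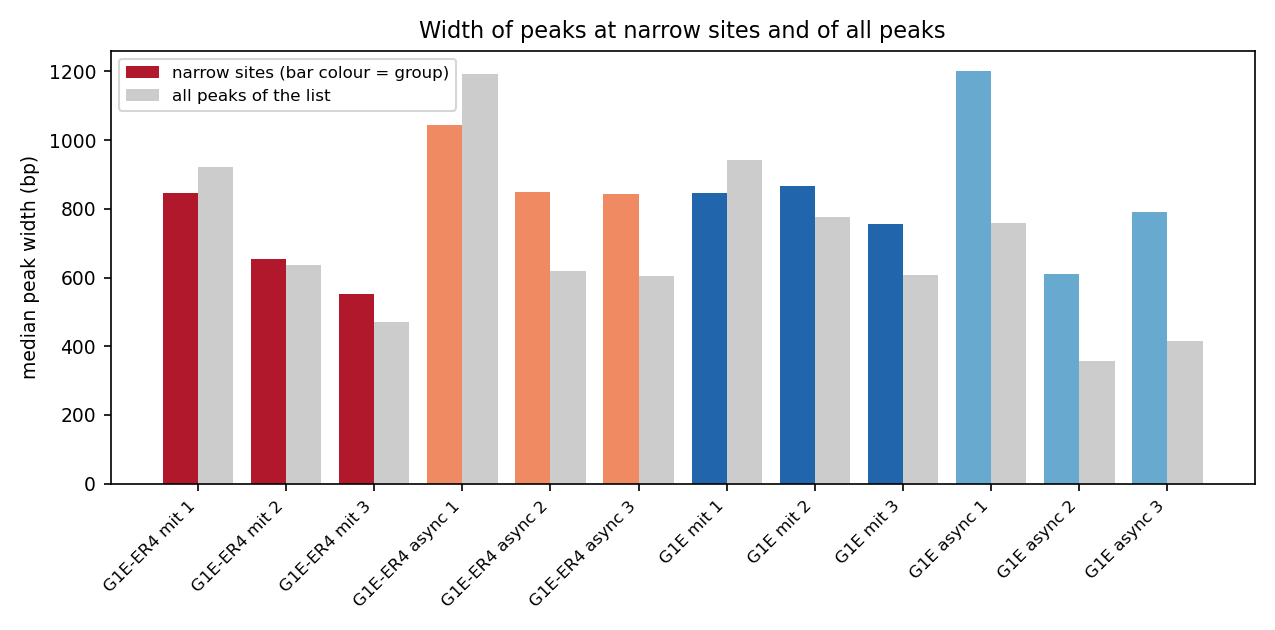
Median peak width (bp) in each of the 12 lists (mit, mitotic; async, asynchronous) at the 3874 narrow sites, in coloured bars (1 colour per group), and over all peaks of the list, in grey bars. Narrow sites were narrower than the whole list in G1E-ER4 mit 1, G1E mit 1 and G1E-ER4 async 1, and wider in the other 9.

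Whole lists also differed in width. Divided by the median width of all peaks of the list, the width at narrow sites was 1.06 ± 0.141 in mitotic and 1.47 ± 0.354 in asynchronous lists (SD, n = 6 each). The stages overlapped, since G1E-ER4 asynchronous 1 had the lowest of the 12 values, at 0.876, beside 0.897 to 1.25 in mitotic lists. The difference of -0.41 had an exact permutation p = 0.02, unadjusted. It was -0.17 within G1E-ER4 (exact p = 0.4) and -0.64 within G1E, where the stages did not overlap (exact p = 0.1, the smallest possible there). Under a limit of 1000 bp for the merged region, the difference in width was -71.2 bp with an exact permutation p = 0.04, unadjusted. By line the width differed by -46.7 bp between G1E-ER4 and G1E (exact permutation p = 0.675, adjusted 0.771), and by 36.7 bp without G1E asynchronous 1. The stage difference in G1E-ER4 minus that in G1E was -183 bp, which did not pass either (exact permutation p = 0.375, adjusted 0.656). Without G1E asynchronous 1 it was -350 bp (exact permutation p = 0.035, unadjusted).

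A small set of sites was narrower in every mitotic list. At 117 narrow sites (3.02%) all 6 mitotic peaks were narrower than all 6 asynchronous ones, against 0.886% of all regions of the 12 lists. The opposite held at 1 site (0.0258%), against 0.0434% of all regions. At the 117 sites the median width was 506 bp in mitotic and 781 bp in asynchronous lists, and their mean rank had a median of 14803. Their summits spanned a median of 52 bp. By the rank fit described next, 55 of the 117 were weaker and 2 stronger in mitosis. Among all narrow sites 15.3% were weaker and 6.89% stronger, and among all regions of the 12 lists 9.16% were weaker and 13.5% stronger. Width and rank come from the same peaks, so the 2 measures are not independent.

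Narrow sites lay in the upper part of the lists. They were chosen for a peak in all 12 lists and ranked by the best peak of each, so this is not a result. Their mean rank over the 12 lists had a median of 11765 and quartiles of 6158 and 20519. All lists placed 788 of them (20.3%) among their 10000 highest peaks and 1636 (42.2%) among their 20000 highest. At 1138 sites (29.4%) at least 1 list ranked the site below 50000. Wide regions had a median mean rank of 10693. All lists placed 25.7% of them among their 10000 highest peaks and 45.8% among their 20000 highest, and 29.1% were below 50000 in at least 1 list.

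The median ranks of the narrow sites lay close together in all lists. The median rank was 10870, 9347 and 11359 in mitotic G1E-ER4 and 9563.5, 9377.5 and 9075 in asynchronous G1E-ER4 lists. It was 11500.5, 9423.5 and 9341 in mitotic G1E and 9774, 9227.5 and 9374.5 in asynchronous G1E lists. Mitotic and asynchronous values overlapped in both lines. The stage difference was 908 ranks (exact permutation test, two-sided, p = 0.125, adjusted 0.5 over 8 tests), 1187 in G1E-ER4 (exact p = 0.3) and 630 in G1E (exact p = 0.6). Without G1E-ER4 mitotic 2 it was 1203 ranks (exact permutation p = 0.03, unadjusted). The line difference was 158.5 ranks (exact permutation p = 0.865, adjusted 0.865). It turned to -49.9, -7.71 and -28.3 ranks without G1E-ER4 mitotic 3, G1E mitotic 2 and G1E mitotic 3. The stage difference was 557 ranks larger in G1E-ER4 than in G1E (exact permutation p = 0.62, adjusted 0.771).

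The weak end of the distribution reached further down in mitotic than in asynchronous G1E-ER4 lists. The 90th percentile of the ranks of narrow sites was 47700, 35922 and 45784 in mitotic G1E-ER4 and 22614, 21361 and 21038 in asynchronous G1E-ER4 lists. In G1E it was 57887, 26888 and 27944 in mitotic and 24853, 29866 and 26985 in asynchronous lists. The groups were separate in G1E-ER4 and overlapped in G1E. The share of narrow sites ranked below 50000 was 7.70% ± 2.28 in mitotic and 1.94% ± 0.431 in asynchronous G1E-ER4 lists, and 6.62% ± 5.74 in mitotic and 2.44% ± 1.04 in asynchronous G1E lists (SD, n = 3 each). The G1E mean rested on G1E mitotic 1, at 13.2%, and without it the other two mitotic G1E lists averaged 3.30%, inside the range of 1.83% to 3.64% of the asynchronous ones. With the mean over sites in place of the median, the stage difference was 4278 ranks with an exact permutation p = 0.015, unadjusted. The mitotic lists had the flatter signal curves given above, and the part of the curves in this difference was not tested.

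**Figure D3:**
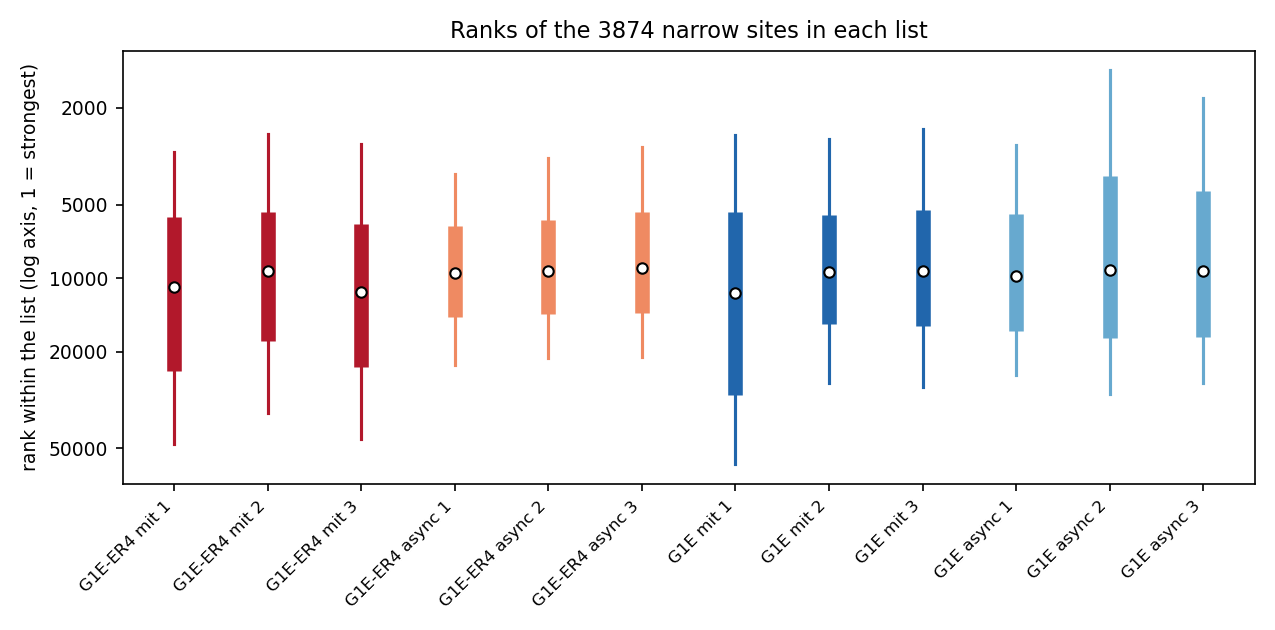
Rank within the list (log axis, stronger sites at the top) of the 3874 narrow sites in each of the 12 libraries (mit, mitotic; async, asynchronous); the point is the median, the thick bar the quartiles and the thin line the 10th to 90th percentile. Medians lie between 9075 and 11500.5 in all lists, while the lower ends of the lines lie at 26888 to 57887 in mitotic and 21038 to 29866 in asynchronous lists.

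Each site was then tested for a stage difference in log2 rank with limma, fitted on all 16145 regions of the 12 lists with Benjamini-Hochberg adjustment over them and a threshold of 0.05. Of the 3874 narrow sites 858 (22.1%) were called, against 22.7% of all regions fitted. The calls leaned toward the weaker direction. The width limit that sets narrow sites apart and the ranks come from the same peaks, so this lean is not independent of the choice of sites. In mitosis 591 narrow sites (15.3%) were weaker, against 9.16% of all regions, and 267 (6.89%) were stronger, against 13.5% of all regions. The median log2 rank difference, mitotic minus asynchronous, was 0.30 over narrow sites and -0.03 over all regions fitted. With the regions of the 12 lists ranked among themselves alone, these medians were 0.16 and 0.0027. Among the 50000 highest peaks of each list they were 0.17 and -0.014, and 59.1% of 514 calls were toward weaker. Of the 858 calls 68.9% were toward weaker, beside 40.3% of the calls over all regions. With ranks not put on a log scale 57.7% of 395 calls were, 228 weaker and 167 stronger, beside 27.6% of 2072 over all regions. Under a width limit of 1000 bp 176 of 788 sites were called, 95 weaker and 81 stronger, beside 3666 of all 16145 regions. Without G1E-ER4 asynchronous 2 or 3, the number called was 503 or 479, beside 2318 or 2218 over all regions.

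**Figure D4:**
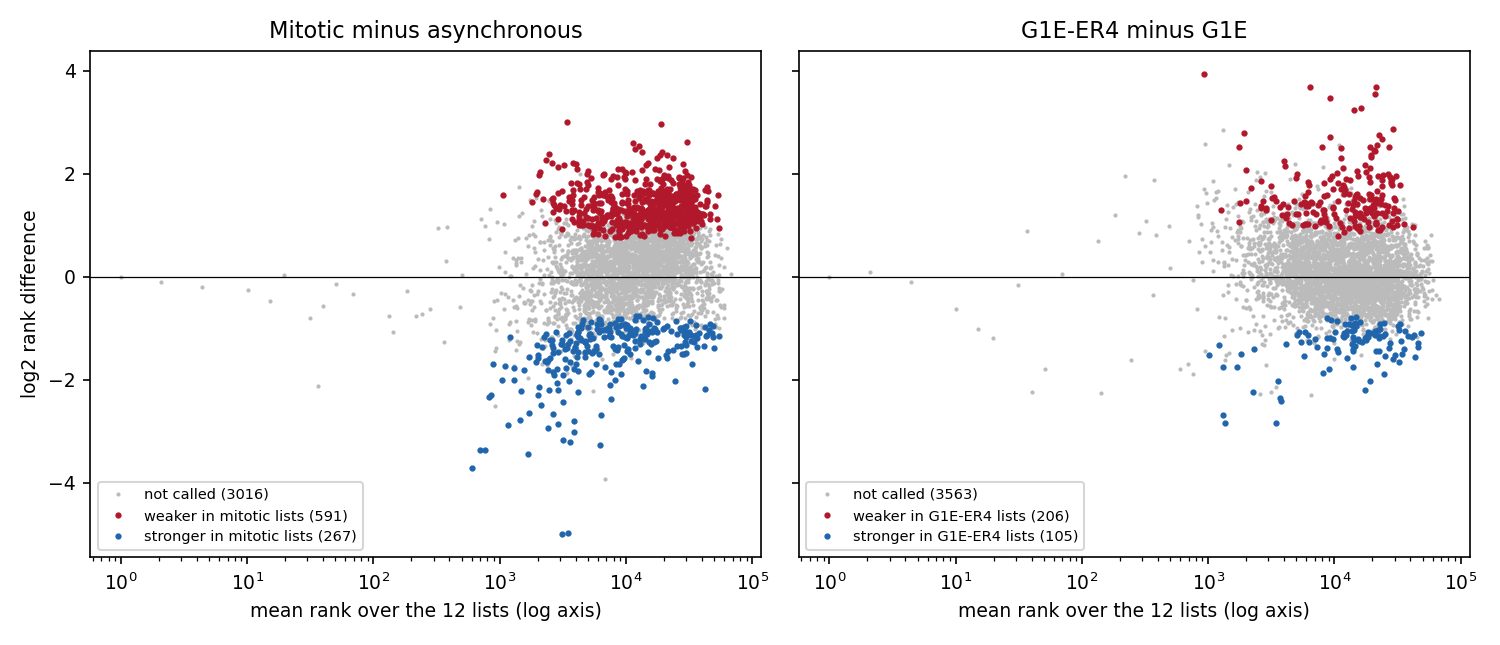
Log2 rank difference of each of the 3874 narrow sites against its mean rank over the 12 lists (log axis), for mitotic minus asynchronous (left) and G1E-ER4 minus G1E (right); red points were called weaker and blue ones stronger by limma at an adjusted p under 0.05. In mitosis 591 sites were weaker and 267 stronger, and in G1E-ER4 206 were weaker and 105 stronger.

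Sites weaker in mitosis had a median rank of 18971 in mitotic and 8527 in asynchronous lists, and a median width of 672 bp in mitotic and 890.5 bp in asynchronous lists. Sites stronger in mitosis had a median rank of 4332.5 in mitotic and 9248.5 in asynchronous lists, and a median width of 840.5 bp in mitotic and 823.5 bp in asynchronous lists. At the 3016 narrow sites not called by stage the median width was 768 bp in mitotic and 880 bp in asynchronous lists. The summits spanned a median of 83 bp at weaker and 50 bp at stronger sites, and 63 bp at those not called. The 6 mitotic ranks were all weaker than the 6 asynchronous ones at 118 narrow sites (3.05%), against 1.54% of all regions, and all stronger at 104 (2.68%), against 4.79% of all regions. The median log2 difference over narrow sites was 0.29 in G1E-ER4 and 0.25 in G1E, and over all regions fitted 0.15 in G1E-ER4 and -0.26 in G1E. No narrow site had a stage difference that differed between the lines by limma (0 called, 0.0% of all regions fitted). At an unadjusted p under 0.05 there were 281 of 3874, a number not read further, since the share over all regions is not given here.

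The share called weaker was higher in each successive class of weaker narrow sites. It is given beside all fitted regions of the same range of mean rank and without a test. Classes and calls rest on the same 12 ranks, so large mitotic rank numbers also move a site toward a weaker class. The rise over the classes is thus not read as a result. Among the 969 strongest narrow sites, by mean rank over the 12 lists, 9.39% were weaker and 12.2% stronger in mitosis, beside 8.29% and 12.9% of 5069 regions. In the next class, of 968 sites, 11.98% were weaker and 5.99% stronger, beside 7.58% and 6.11% of 3338 regions. In the third class, again of 968, 16.7% were weaker and 4.13% stronger, beside 11.5% and 7.65% of 3059 regions. Among the 969 weakest, 22.9% were weaker and 5.26% stronger, beside 9.70% and 23.5% of 4668 regions. In the weakest class most calls were thus toward weaker at narrow sites and toward stronger over all regions. The span of the 12 summits had a median of 56, 62, 60 and 122 bp in these 4 classes from the strongest to the weakest.

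The 5 narrow sites of the best mean rank, chosen by that measure, are given as a description. The site at chr9:3002004-3003300 was the strongest peak of all 12 lists, with 1258 to 1289 bp in each and summits within 5 bp. Its neighbour at chr9:3000001-3001606, 2232 bp away, had rank 2 in 11 lists and rank 3 in G1E-ER4 asynchronous 1. The others were chr13:9010655-9011547, chr8:3754132-3754970 and chr4:78419398-78420363, with mean ranks of 4.42 ± 1.98, 10.1 ± 6.68 and 15.2 ± 11.8 (SD, n = 12 lists). Their ranks ran from 3 to 9, from 5 to 28 and from 7 to 42. None of the 5 was called by stage or line with limma. These regions were not compared with any collection of regions known for high signal in many assays, since none was used here.

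Among the called sites with the largest weakening in mitosis, chr6:72487810-72489407 had the largest. It ranked 10771, 2692 and 3265 in mitotic G1E-ER4 and 2637, 976 and 372 in asynchronous G1E-ER4 lists. In G1E it ranked 8327, 5485 and 3886 in mitotic and 2181, 135 and 233 in asynchronous lists. Mitotic and asynchronous ranks did not overlap in either line, and the log2 difference was 2.99 ± 0.66 (SE, limma, adjusted p = 0.0068). The site at chr13:48607959-48609248 followed with 2.95 ± 0.49 (SE, limma, adjusted p = 0.0015). In mitotic G1E-ER4 it ranked 68850, 65576 and 22548, against 8609, 6149 and 3816 in the asynchronous lists. It was also weaker in G1E-ER4 than in G1E, by a log2 difference of 1.84 (limma, adjusted p = 0.024).

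The next 3 were chr2:39228455-39229081, chr11:45618572-45619825 and chr6:120306197-120307797, with log2 differences of 2.61, 2.60 and 2.54. At chr2:39228455-39229081 all 12 summits lay within 54 bp while 3 mitotic lists ranked it near their end, at 87528.5, 90066 and 91903. The other mitotic ranks were 13676 in G1E-ER4 and 23584 and 10276 in G1E, against 8538 to 13808 in asynchronous G1E-ER4 and 829 to 11075 in asynchronous G1E lists, so the stages overlapped in both lines. The peak there was 275 to 519 bp wide in mitotic and 486 to 616 bp in asynchronous lists. With ranks not on a log scale this site was no longer called (limma, adjusted p = 0.068). The site at chr11:45618572-45619825 was also weaker in G1E-ER4 than in G1E, by 2.49 (limma, adjusted p = 0.0058).

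The sites with the largest strengthening in mitosis included a pair on chromosome 4. The site at chr4:122132228-122132902 ranked 8, 255 and 29 in mitotic and 10, 1595 and 4541 in asynchronous G1E-ER4 lists. In G1E it ranked 7, 91 and 364 in mitotic and 1380, 22460 and 6700 in asynchronous lists. G1E-ER4 asynchronous 1 was thus as high as the mitotic lists, and the groups overlapped in G1E-ER4 and not in G1E. The second site, chr4:121870597-121871272, lay 261635 bp away and had nearly the same values: 9, 320 and 30 in mitotic G1E-ER4, 11, 2096 and 4455 in asynchronous G1E-ER4, 9, 92 and 338 in mitotic G1E, and 1490, 27257 and 5607 in asynchronous G1E. Their merged widths were 675 and 676 bp.

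The log2 differences of the pair were -5.01 ± 1.40 and -4.97 ± 1.39 (SE, limma, adjusted p = 0.020 each). Neither was called without G1E-ER4 mitotic 1, G1E-ER4 asynchronous 2, G1E-ER4 asynchronous 3 or G1E asynchronous 2. The adjusted limma p was then 0.052 to 0.059 for the first site and 0.051 to 0.059 for the second. With ranks not on a log scale it was 0.139 and 0.177.

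The other 3 of the strongest gains were chr16:61055940-61056572 at -3.72, chr1:23262554-23264506 at -3.44 and chr17:23012948-23013803 at -3.38. The site on chromosome 1 ranked 495, 322 and 520 in mitotic and 1442, 4036 and 3053 in asynchronous G1E-ER4 lists. In G1E it ranked 66, 133 and 256 in mitotic and 6549, 2179 and 1206 in asynchronous lists. All 6 mitotic ranks were stronger than all 6 asynchronous ones (limma, adjusted p = 0.0012). At chr16:61055940-61056572 the call was lost with ranks not on a log scale (limma, adjusted p = 0.154).

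Between the lines narrow sites had a smaller share of calls toward stronger in G1E-ER4 than all regions fitted, and a like share toward weaker. Most of their calls were thus toward weaker, except under a width limit of 1000 bp. Here too the width limit and the ranks come from the same peaks, so this is not independent of the choice of sites. With G1E-ER4 set against G1E over both stages, limma called 311 (8.03%), against 11.9% of all regions fitted. In G1E-ER4 206 (5.32%) were weaker, against 5.22% of all regions, and 105 (2.71%) were stronger, against 6.67%. With the replicate number as a block 570 were called, 382 weaker and 188 stronger, beside 3099 of all 16145 regions. Without G1E asynchronous 1, 501 were called, beside 2607 over all regions. Without G1E-ER4 mitotic 1, G1E-ER4 asynchronous 1 or 2, G1E mitotic 3, or G1E asynchronous 2 or 3, the numbers were 198, 160, 158, 184, 191 and 179. Over all regions they were then 1288, 1125, 1133, 1247, 1298 and 1183. Under a width limit of 1000 bp 48 of 788 sites were called, beside 1919 of all 16145 regions. Of the 48, 39.6% were weaker in G1E-ER4, against 66.2% of the 311.

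The median log2 difference, G1E-ER4 minus G1E, was 0.07 over narrow sites and -0.12 over all regions fitted. Ranking the regions of the 12 lists among themselves alone moved the median of all regions to -0.0044 and that of narrow sites to 0.10. Under a width limit of 1000 bp the median over the narrow sites turned to -0.07. Sites weaker in G1E-ER4 had a median rank of 14219 in G1E-ER4 and 5813.5 in G1E lists. Sites stronger in G1E-ER4 had a median rank of 7906.5 in G1E-ER4 and 17913 in G1E lists. Chromosome 2, the only one for which this share was taken, held 15.2% of these 105 sites. It held 3.88% of the 206 weaker sites and 7.47% of the narrow sites not called by line. The share among called regions of all widths is not given here, so these shares are not read further. All 6 G1E-ER4 ranks were weaker than all 6 G1E ranks at 48 narrow sites (1.24%), against 1.59% of all regions, and all stronger at 39 (1.01%), against 2.25%.

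The clearest line difference by adjusted p among the named sites was at chr2:101876439-101877968. It ranked 84726, 27363 and 78191 in mitotic G1E-ER4 and 4962, 3815 and 3038 in mitotic G1E lists. In asynchronous cells it ranked 17543, 11894 and 19969 in G1E-ER4 and 1093, 2686 and 981 in G1E lists. The lines did not overlap at either stage, and the log2 difference was 3.69 ± 0.36 (SE, limma, adjusted p = 0.00011). Its 12 summits nevertheless lay within 33 bp.

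The site at chr12:106228480-106229880 differed as much, by 3.68 ± 0.56 (SE, limma, adjusted p = 0.0011). It ranked 16498, 12168 and 7329 in mitotic G1E-ER4 and 4636, 2174 and 1406 in mitotic G1E lists. In asynchronous cells it ranked 14818, 8453 and 8460 in G1E-ER4 and 71, 279 and 1253 in G1E lists, again without overlap. The sites at chr16:35677257-35678423 and chr1:52510537-52512163 were weaker in G1E-ER4 by 3.55 and 3.46, and the second was not called with ranks not on a log scale (limma, adjusted p = 0.069).

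The largest log2 difference, 3.94 at chr8:115521992-115522614, rested on few lists. Its ranks were 532, 12 and 121 in mitotic and 9421, 154 and 591 in asynchronous G1E-ER4 lists, against 5, 18 and 14 in mitotic and 153, 14 and 19 in asynchronous G1E lists. The lines overlapped. Its limma adjusted p was 0.032, and 0.055 to 0.080 without G1E-ER4 mitotic 1 or 3, G1E-ER4 asynchronous 1, G1E mitotic 3, or G1E asynchronous 2 or 3. All its summits lay within 6 bp.

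Among the sites stronger in G1E-ER4, chr17:23014396-23015335 had the largest difference, at -2.85 ± 0.69 (SE, limma, adjusted p = 0.015). It lies 1609.5 bp from chr17:23012948-23013803, named above for its strengthening in mitosis. It ranked 1045, 242 and 103 in mitotic and 490, 885 and 1781 in asynchronous G1E-ER4 lists, against 9712, 900 and 689 in mitotic and 8272, 12385 and 4581 in asynchronous G1E lists. The lines overlapped in mitosis and not in asynchronous cells. With ranks not on a log scale it was not called (limma, adjusted p = 0.068).

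The others were chr9:113665124-113666469 at -2.85, chr10:104675257-104675868 at -2.68, chr1:157891011-157891723 at -2.42 and chr2:163895421-163897293 at -2.36. At chr9:113665124-113666469 the adjusted limma p was 0.031, and 0.062 to 0.088 without G1E-ER4 mitotic 2 or 3, G1E-ER4 asynchronous 1 or 2, or G1E asynchronous 3. At chr10:104675257-104675868 it was 0.035, and 0.052 to 0.088 without G1E-ER4 mitotic 1 or 3, G1E-ER4 asynchronous 1, G1E mitotic 2 or 3, or G1E asynchronous 2 or 3. With ranks not on a log scale neither was called (limma, adjusted p = 0.147 and 0.201), nor was chr2:163895421-163897293 (limma, adjusted p = 0.118). The site at chr1:157891011-157891723 kept its call in every alternative run.

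Most narrow sites had no other narrow site within 10 kb, and their spacing was not compared with a random placement. The distance from a site's median summit to that of the nearest narrow site had a median of 76242 bp, with quartiles of 26654 and 212372 bp. The distance was under 10 kb at 492 sites (12.7%), and 204 (5.27%) were more than 1 Mb from the next. The nearest wide region was closer, at a median of 30789 bp, and lay under 10 kb away at 903 sites (23.3%). Wide regions lay a median of 17335 bp from one another. Since wide regions outnumber narrow sites, part of this order follows from the counts. Joined where neighbours lay within 10 kb, the sites formed 3382 singles, 204 pairs, 24 runs of 3 and 3 runs of 4.

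**Figure D5:**
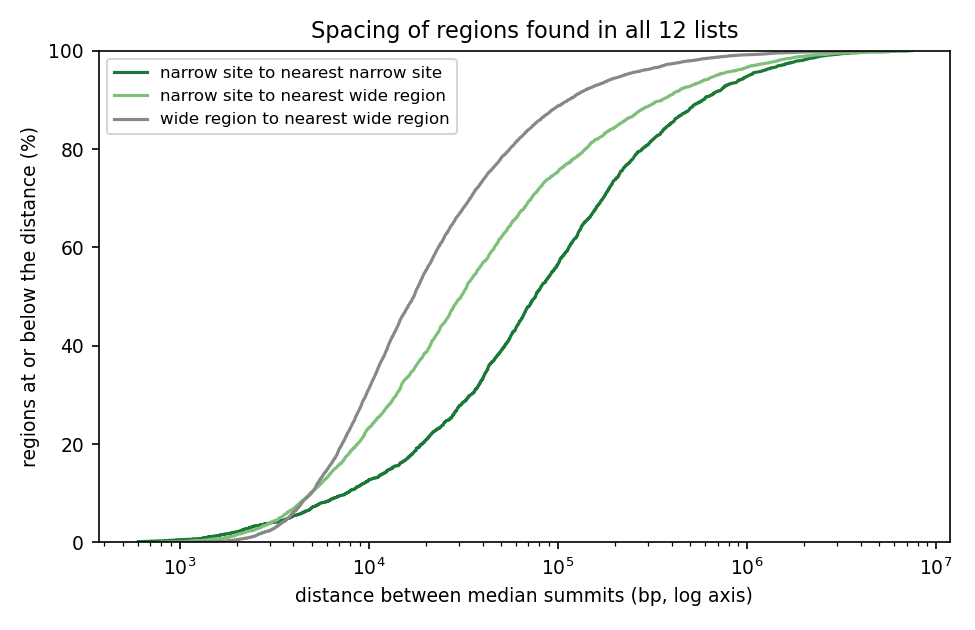
Share (%) of narrow sites whose nearest narrow site or nearest wide region lies within the distance on the x axis (bp between median summits, log axis), with wide regions to their nearest wide region in grey. At 100 kb the curves stand at 56.5% for narrow to narrow, 75.4% for narrow to wide and 88.7% for wide to wide.

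Regions of few lists often lay beside a narrow site, as they did beside narrow regions of fewer lists. From the edge of a narrow site to the nearest merged region of any number of lists the gap had a median of 666 bp, and that neighbour was held by a median of 2 lists. For wide regions the gap was 240 bp and the neighbour was held by a median of 4 lists. For narrow regions of fewer lists the values were 707 bp and 2 lists. At 7.77% of narrow sites the gap exceeded 10 kb, beside 6.98% of narrow regions of fewer lists and 1.29% of wide regions.

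The density of narrow sites ran from 1.13 per Mb on chromosome 4 to 2.98 per Mb on chromosome 11. Their share of the regions of all 12 lists ran from 8.79% on chromosome 12 to 41.0% on chromosome 13, beside 12.2 wide regions per Mb on chromosome 12 and 2.24 on chromosome 13.

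The closest neighbours included 2 similar pairs on chromosome 17. The sites at chr17:6600507-6601016 and chr17:6601140-6601839 have median summits 598 bp apart, and those at chr17:6859626-6860326 and chr17:6860449-6860993 lie 605 bp apart. Their merged widths were 510 and 700 bp in the first pair and 701 and 545 bp in the second. The first sites of the pairs lie 259289.5 bp apart. The other of the 3 closest pairs, chr6:90556130-90557027 and chr6:90557079-90557890, has summits 601.5 bp apart. Its second site was weaker in mitosis by a log2 difference of 1.03 (limma, adjusted p = 0.038) while the first differed by 0.18 (limma, adjusted p = 0.67). Whether the neighbours differed from each other was not tested.

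Sites on both sides of the width limit are given as a description. Just inside it were regions of 1999 bp on chromosome 18, of 1999 bp at chr9:118058549-118060547 and of 1998 bp at chr13:38749468-38751465, with mean ranks of 6022, 7472 and 1433 and summits within 31, 71 and 38 bp. Just outside it, at 2000 bp each, were chr5:31455293-31457292, chr9:64807855-64809854 and chr9:64128804-64130803. Their mean ranks were 4573, 5331 and 12225 and their summits spanned 72, 50 and 209 bp.

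The lists that the authors made from pooled replicates were not used to choose the sites. The pooled list of mitotic G1E-ER4 held a peak at all 3874 narrow sites, and those of asynchronous G1E-ER4, mitotic G1E and asynchronous G1E each at 3873. The pooled summit lay a median of 4 bp from the median of the group's replicates in both mitotic groups and 3 bp in both asynchronous ones. It was within 50 bp at 95.7% of sites in mitotic and 97.2% in asynchronous G1E-ER4, and at 96.3% in mitotic and 97.0% in asynchronous G1E. The pooled lists hold the same libraries as the replicate lists, so this is no independent measurement.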

How the data were processed

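DNase-seq peaks of 12 libraries in 4 groups were used, with groups taken from the labels. Reads were aligned with Bowtie to mm9, per the submitters' processing notes. The calling of peaks, its filters and the Bowtie version are details not given in the sources used here. In all 16 lists were deposited, 12 of single libraries and 4 pooled by group, which have no header and hold 100000 peaks each in descending order of a signal. That signal is the value given to each peak in the deposited lists, with unstated normalization, and served only for ranks within a list. Equal lengths make ranks comparable, but a list with a flatter signal curve orders its weak peaks less firmly. Peak lists give no counts, so depth and counting intervals could not be stated. Between 0.323% and 1.11% of the peaks of a list lay off the autosomes and were left out. No 2 replicate lists were identical.

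Where a list had several peaks in a region, the best-ranked one gave its rank, width and summit. Positions count from 1. Each library gave 1 median over the sites, or each pair of libraries 1 median summit distance, and these were compared by two-sided exact permutation tests that exchanged stage labels inside each line, or line labels inside each stage. There are 20 arrangements within a stratum and 400 combined, and smallest p-values of 0.1 and 0.005, or 0.01 for pairs. The threshold was 0.05, with Benjamini-Hochberg adjustment over 8 tests. Within a stratum the design cannot reach 0.05. Differences by region were fitted with limma 3.58.1 in R 4.3.3 on log2 ranks of the 16145 regions, with group means and a trended variance prior. No filter on low values was needed, since each region has a rank in all lists. Procedures were tested on simulated data. Other steps used Python 3.11.15, numpy 2.4.6, pandas 2.3.3 and matplotlib 3.10.9.

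The sites, tests and alternatives were chosen with earlier results of these data known. Named are the 5 sites of best mean rank, the 5 called sites with the largest difference per contrast and direction, 3 on each side of the width limit, 3 each with the smallest and the largest span of summits, and the 3 closest pairs. Alternatives were each library left out, a replicate block, the 50000 highest peaks, a limit of 1000 bp, leaving out chromosomes 1, 2, 4, 12 and 14, other scales of width and rank, other summaries, and a prior without trend. Deviations of same-numbered libraries from their group means, in log2 rank, correlated at 0.17 to 0.53 in the 6 pairs of a line comparison. Libraries of other numbers reached 0.27 in mitotic cells (G1E-ER4 2 with G1E 3) and 0.33 in asynchronous cells (G1E-ER4 3 with G1E 2). By stage, same-numbered libraries correlated at 0.15 to 0.39 in G1E-ER4 and at 0.0047 to 0.19 in G1E, below 0.1 for 2 of 3 pairs there. Other numbers reached 0.26 in G1E-ER4 (mitotic 2 with asynchronous 3) and 0.27 in G1E (mitotic 3 with asynchronous 2). Numbers 2 and 3 were thus not told apart. The labels state no pairing, so differences within numbers and the block are given as alternatives.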

Additional observations from a re-analysis of the deposited data

How the results depend on the processing

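Of 144 values of the comparisons of libraries under alternatives 126 kept their direction and their side of the threshold, and of 351 values of named sites 315 did. Of 57 numbers of calls 40 stayed within 1.5 times the reported one. The limit of 1000 bp left the fit by region unchanged, so its values of named sites are the same by construction. The numbers of calls include those of the interaction, nearly all 0. Within single strata 130 of 144 values kept their sign, and no exact p there could pass 0.05. Those that did not are given here, and the cause was not tested unless fewer sites or libraries were used. Under a width limit of 1000 bp, the width by stage was -71.2 bp (exact permutation p = 0.04) and the rank by line -1443. The rank interaction was -190.5 and the summit excess by line -0.0972 bp (-0.417 bp in mitosis). Calls were then 176 by stage and 48 by line among 788 sites, beside 3666 and 1919 of all 16145 regions. Relative to the list's median, the width differed by -0.41 by stage (exact permutation p = 0.02), by 0.47 as interaction and by -0.518 by line in asynchronous cells. The mean over sites gave a rank difference by stage of 4278 (exact permutation p = 0.015). The rank by line in mitosis was -1538 under 1000 bp.

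Among the 50000 highest peaks the rank interaction was -165 and the rank by line in asynchronous cells 342. Calls by stage were then 514 of 2839 sites, beside 1983 of all 11432 regions fitted. Ranked among the shared regions alone, the interaction was -1214 (exact permutation p = 0.08), and the rank by line -144.5 in mitotic and 1069 in asynchronous cells. The summit excess by line was 0.967 percentage points as the share over 100 bp apart (exact permutation p = 0.04), and -0.222 bp in mitosis at sites with 1 peak per list. Without chromosomes 1, 2, 4, 12 and 14 there were 558 calls by stage among 2869 sites, beside 1719 of all 9967 regions fitted. With ranks not on a log scale there were 395 by stage and 107 by line, beside 2072 and 869 over all regions. With the replicate block there were 1253 calls by stage and 570 by line, beside 4999 and 3099 over all regions. The summit excess by stage was then 2.67 bp as before, with an exact permutation p = 0.0625. That is the smallest possible with 64 arrangements, so that test could not pass with the block. The block changed no other call of a comparison of libraries or a named site.

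Leaving out 1 library gave ranges of -200 to -52.1 bp for width by stage, -111 to 36.7 bp by line and -350 to -55.1 bp as interaction. For rank they were 555 to 1203 by stage, -49.9 to 512 by line and 140 to 1263 as interaction, and for the summit excess 1.68 to 3.81 bp by stage and 0.375 to 1.38 bp by line. Calls numbered 479 to 935 by stage, 158 to 501 by line and 0 to 4 as interaction, the 4 without G1E asynchronous 1. Over all regions they ranged from 2218 to 3963, from 1125 to 2607 and from 0 to 14. Within strata, ranges that changed sign were -172 to 123 bp for width by stage in G1E, -83.2 to 212 bp for width by line in asynchronous cells, -76.4 to 1003 for rank by stage in G1E, -236 to 37.7 for rank by line in asynchronous cells and -0.25 to 1.08 bp for the summit excess by line in mitosis. Of the 20 named differences none reversed under any alternative run, and 36 of 351 values fell short of the threshold.

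Read depth, unknown here, and the rank limit of the lists bound all of these values: a site just below the limit in 1 list is not counted as a narrow site.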

Other observations

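A few narrow sites lay in sets of like width and spacing. On chromosome 4, chr4:122132228-122132902 and chr4:121870597-121871272 lie 261635 bp apart, with merged widths of 675 and 676 bp, mean ranks of 3120 and 3476 and log2 rank differences by stage of -5.01 and -4.97 and by line of -2.24 and -2.14. On chromosome 17, chr17:6600507-6601016 with chr17:6601140-6601839 and chr17:6859626-6860326 with chr17:6860449-6860993 have internal spacings of 598 and 605 bp, and their widths run in mirrored order. The wider site of each pair was the stronger one, with mean ranks of 13168 and 20715, beside 23241 and 28127 for the narrower ones. The stage differences of the wider sites were not alike, at -1.15 (limma, adjusted p = 0.024) in the first pair and -0.23 (limma, adjusted p = 0.76) in the second. These sites were picked out after their values were seen. Whether they share sequence, and whether reads could be placed uniquely in them, was not tested, since no genome of mm9 was used here.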
